A study of Homo sapiens with 6 samples.

Results

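ZBED6 and ZC3H11A are 2 protein-coding genes that share a start on the plus strand of chromosome 1, and they are described here through the 16 transcripts that the deposited files list for them, 1 of ZBED6 and 15 of ZC3H11A, among 21447 genes in all. They were chosen because ZBED6 stood among the genes with the lowest fold changes after ionizing radiation (IR) in these same libraries, so that every difference between the groups given for the pair is a description and carries no test. U-2 OS cells, a human osteosarcoma line, were left untreated or collected 24 h after 4 Gy of IR, with 3 bulk RNA sequencing libraries in each group, which the study's legends call independent samples without saying whether they were separate cultures. All libraries came from this single line in the same medium, and p-values measure only the spread between these libraries. Poly(A) RNA and an mRNA kit are named in the labels, but a kit for total RNA in the methods. In bulk RNA, fewer cells that express a gene and less RNA per cell cannot be told apart.

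ZBED6 is a transcription factor with BED zinc fingers that placental mammals derived from a DNA transposon of the hAT group, and it is best known as a repressor of IGF2 in muscle. Its coding sequence is a single block inside an early intron of ZC3H11A, and its protein is made from RNA in which this intron is retained. ZC3H11A, the host gene, encodes a protein with CCCH zinc fingers that binds RNA and associates with the machinery that exports mRNA from the nucleus. One transcription unit can thus give RNA for either protein, depending on whether the intron is spliced out, and each RNA with the intron also holds the exons of the host.

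In the annotation used here (GENCODE release 44, GRCh38), ZBED6 (ENSG00000257315) spans chr1:203795623-203854124 and ZC3H11A (ENSG00000058673) spans chr1:203795623-203854999. The only listed transcript of ZBED6, ZBED6-201 (ENST00000550078), is not intronless. It has 17 exons, of which 16 are shared with ZC3H11A-201, and a first exon of 7394 bases. Only the coding sequence is in 1 block, chr1:203797523-203800459, with 2937 bases or 979 codons. It lies in intron 2 of ZC3H11A-201. The coding sequence of ZC3H11A has 2430 bases, or 810 codons, and begins 16611 bases further on. ZC3H11A-214 (ENST00000639812) is counted for ZC3H11A and also holds the whole coding sequence of ZBED6, while ZC3H11A-212 (ENST00000495527), annotated as a target of nonsense-mediated decay, holds 55.0% of it. ZC3H11A-215 (ENST00000640465) starts 19282 bases past the start of ZBED6-201 with an exon of its own of 68 bases, lacks all of the ZBED6 coding sequence and has no coding sequence annotated.

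**Figure D1:**
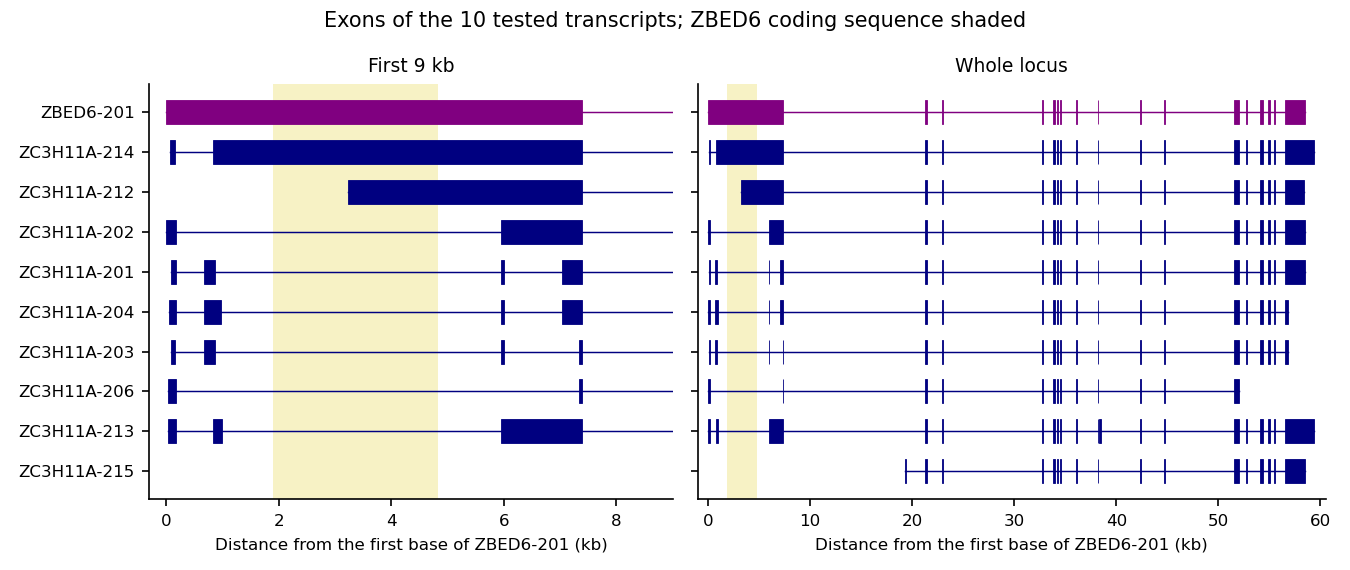
Exons (boxes) and introns (lines) of the 10 tested transcripts of both genes in GENCODE release 44, by distance in kb from the first base of ZBED6-201, for the first 9 kb (left) and the whole locus (right), with the coding sequence of ZBED6 shaded. ZBED6-201 and ZC3H11A-214 cover the whole shaded stretch, ZC3H11A-212 covers the later 55.0% of it, and ZC3H11A-215 begins far downstream.

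The sequences below mark the splice donor of ZC3H11A-201 that opens the intron with ZBED6, and the ends or starts of the coding sequences. They are from the plus strand of GRCh38, written 5′ to 3′, 30 bases each, with the splice site or codon in capitals. In ZC3H11A-201, the intron that holds ZBED6 opens at the donor (GT) of exon 2, chr1:203796482-203796511. ZC3H11A-203 and ZC3H11A-208 use the same donor. Other host transcripts open this intron elsewhere, such as ZC3H11A-202 after base 203795794 and ZC3H11A-204 after base 203796601. Past these donors stand the start codon (chr1:203797508-203797537) and the stop codon (chr1:203800448-203800477) of ZBED6. The start codon of ZC3H11A (chr1:203817056-203817085) follows downstream.
second splice donor of ZC3H11A-201: aaactcccataatcgGTgcggattcctatg
start codon of ZBED6: ggagacataaagagaATGagtgtatgtact
stop codon of ZBED6: gaaatactgcctTAAtttctttttctccat
start codon of ZC3H11A: aagaatctacccagcATGcctaatcaagga
ZC3H11A-201 is spliced from the first of these sites to its next exon, which lies past the stop codon of ZBED6, and transcripts that carry ZBED6 read through this donor. Reads from the ZBED6 coding sequence and from unspliced ZC3H11A RNA that still holds this intron have the same bases and cannot be told apart here.

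Both genes share a promoter window in RefSeq (GRCh38.p14), from 250 bases before to 50 bases after the start, shown here because transcripts for either protein begin there. The stretch chr1:203795373-203795652 of that window is
shared promoter: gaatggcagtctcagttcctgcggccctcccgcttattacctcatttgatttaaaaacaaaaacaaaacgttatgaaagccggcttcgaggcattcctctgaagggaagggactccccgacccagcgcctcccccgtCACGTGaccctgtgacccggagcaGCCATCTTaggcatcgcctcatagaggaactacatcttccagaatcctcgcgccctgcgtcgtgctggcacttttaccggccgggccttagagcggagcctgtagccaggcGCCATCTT
with an E-box (its letters are a palindrome) and the YY1 motif, read on the opposite strand, in capitals. Motifs were searched on both strands and were chosen after the sequence had been seen. The E-box letters CACGTG matched 1 time, 113 bases before the start, and occur in 7.23% of 34943 RefSeq promoter windows of the same length. The YY1 letters AAGATGGC matched 2 times, 89 bases before and 22 bases after the start, and 2.89% of the windows hold them. The SP1 letters GGGCGG (44.9% of windows), CCAAT (34.7%), the CHR letters TTTGAA (15.2%), the ETS letters CCGGAAG (10.2%) and the p53 response element (0.0286%) had no match in this window. The window has a GC content of 56.7%, and 44.8% of all windows have less. RefSeq lists another window for ZBED6 alone, chr1:203797273-203797572, around the first base of its coding sequence, with a GC content of 40.3%, 2 matches to CCAAT, 1 to TTTGAA and none to the other motifs.

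The libraries held 18573309 to 22953834 estimated counts, except for IR replicate 3 with 45308792. That library also stood apart from IR replicates 1 and 2 by a chi-square per gene of 26.5 and 29.4, where these 2 differed by 5.69 and untreated libraries by 3.36 to 8.79. CDKN1A, which encodes the cell cycle inhibitor p21, and MDM2, the ubiquitin ligase of p53, served as a check of the IR label and were higher in all 3 IR libraries than in all untreated libraries (log2 fold changes of 1.53 and 0.60, adjusted P = 2.82e-05 and 2.91e-04 in edgeR). Of the 8 markers of mesenchymal cells and osteoblasts, VIM, SPARC, COL1A1, CDH2 and FN1 lay at 93.3 TPM or more in every library (TPM is a level per length, scaled by the authors to a common total), RUNX2 at 3.36 to 4.87, and COL1A2 and TWIST1 at 0.896 or less. Among markers of other cells, KRT18 lay at 142 to 245 TPM, EPCAM at 14.5 to 15.9, CDH1 at 0.616 to 1.87, PTPRC at 0.879 to 3.47 and PECAM1 at 0.399 or less, and CD3E was at 0 in all 6 libraries. Of 14323 genes tested by the quasi-likelihood test of edgeR, 4307 (30.1%) passed an adjusted P of 0.05 between the groups, 15.5% higher and 14.5% lower after IR (400 higher and 901 lower with TPM).

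ZBED6 was lower after IR in every library. Its normalized counts (CPM, counts relative to the scaled library total) were 32.7, 37.4 and 27.0 in the untreated libraries and 14.3, 6.91 and 6.13 in the IR libraries. The groups did not overlap, and the highest IR library, replicate 1, stood at more than the other two IR libraries together. The means were 32.4 ± 5.18 CPM untreated and 9.11 ± 4.49 CPM after IR (SD, n = 3 each), which is 3.64-fold lower by the fit (log2 fold change −1.86 ± 0.26 as standard error, with a 95% confidence interval of −2.45 to −1.28). The estimated counts behind these values were 595, 838 and 553 untreated and 295, 127 and 277 after IR. Only 21 of the 14323 tested genes had a lower fold change, and 0.691% of all tested genes lay below −1 on the log2 scale. Among genes that passed with lower values, without overlap of the groups and with a mean count of 100 or more, the nearest were LUZP1 (−1.87) and GATD3 (−1.68). Because IR replicate 1 decides part of the size, the log2 fold change was −2.34 without it.

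ZC3H11A differed far less. It had 248, 255 and 262 CPM in the untreated libraries and 226, 213 and 200 CPM after IR. The groups did not overlap, which holds for 47.1% of all tested genes, and with lower values after IR for 23.3%. The means were 255 ± 7.08 and 213 ± 12.8 CPM (SD, n = 3 each), and the fitted log2 fold change of −0.26 ± 0.07 (standard error) had a 95% confidence interval from −0.41 to −0.11, with 19.1% of the tested genes lower. With each library's trend with GC content removed, the log2 fold change was −0.15. Both genes lie in the second lowest eighth of genes by GC content (40.8% for ZBED6 and 42.3% for ZC3H11A), whose median log2 fold change was −0.13.

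Per length, the RNA counted for the gene ZBED6 was a minor part of the locus in both groups. ZBED6 lay at 3.88, 4.49 and 3.12 TPM untreated and 1.65, 0.748 and 0.756 TPM after IR. ZC3H11A lay at 72.7, 81.8 and 79.5 TPM untreated and 68.5, 57.7 and 62.8 TPM after IR. The TPM of ZC3H11A was thus 18.2 to 25.4 times that of ZBED6 in untreated libraries and 41.6 to 83.1 times after IR. As a share of the estimated counts of both genes, which grow with transcript length, ZBED6 held 11.6%, 12.8% and 9.35% untreated and 5.95%, 3.14% and 2.97% after IR. The share was lower in each IR library than in each untreated library.

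**Figure D2:**
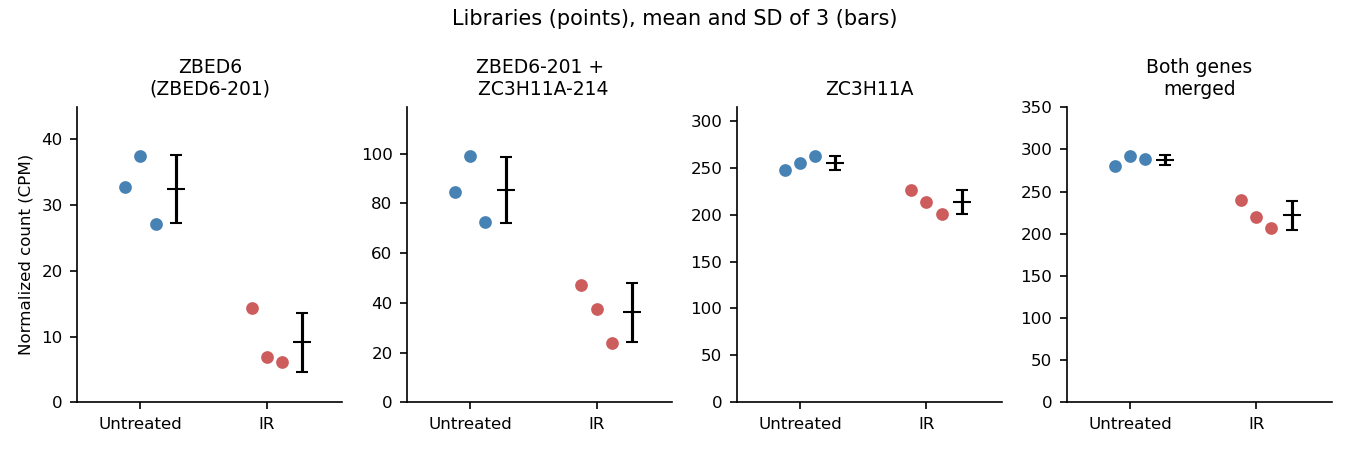
Normalized counts (CPM, linear axes from 0) of ZBED6, of the transcripts that hold its whole coding sequence, of ZC3H11A and of both genes summed, with 1 point for each of 3 untreated (blue) and 3 IR (red) libraries and the mean and SD beside them. ZBED6 lies at 27.0 to 37.4 untreated and 6.13 to 14.3 after IR, and ZC3H11A at 248 to 262 and 200 to 226.

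The division of reads between the genes rests on few bases. Kallisto, the authors' pseudoaligner, assigns a read by the short stretches it shares with transcripts, and stretches of 31 bases were counted here. None of the 31-base stretches of the ZBED6 coding sequence belongs to ZBED6-201 alone, since 54.5% are also in both ZC3H11A-212 and ZC3H11A-214 and the other 45.5% in ZC3H11A-214. Of the 11667 stretches of ZBED6-201, 526 (4.51%) are in no other transcript. ZC3H11A-201, ZC3H11A-202, ZC3H11A-204 and ZC3H11A-214 have none of their own, and ZC3H11A-215 has 68. ZBED6-201 is 12481 bases long in the deposited files, from release 37, and 11697 in release 44, so that these numbers may differ for the version the authors used, whereas the 15 transcripts of ZC3H11A have equal lengths in both. Outside the locus, 2494 of its 13668 stretches are also in ZC3H11B, a near copy of ZC3H11A, which had 1.19 to 8.24 estimated counts in a library and was not tested.

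Summed over both genes, which no division of reads between them can alter, the locus was modestly lower after IR. The sum was 281, 292 and 289 CPM untreated and 240, 220 and 206 CPM after IR. The spread among untreated libraries was small (287 ± 5.90 CPM, SD, n = 3) and the groups did not overlap. On the log2 scale the sum was lower by a fitted −0.37 ± 0.07 (standard error), with −0.53 to −0.22 as the 95% confidence interval, or 1.29-fold lower.

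The RNA that can code for ZBED6 was lower by more than the locus as a whole. ZBED6-201 and ZC3H11A-214 together, the transcripts with the complete ZBED6 coding sequence, had 84.6, 99.0 and 72.4 CPM untreated and 47.2, 37.6 and 23.8 CPM after IR. All IR libraries lay below all untreated libraries, with means of 85.3 ± 13.3 and 36.2 ± 11.8 CPM (SD, n = 3 each). The fitted log2 fold change of −1.26 ± 0.21 (standard error), with a 95% confidence interval of −1.72 to −0.80, is 2.39-fold lower and a smaller difference than that of the gene ZBED6. The other 14 transcripts together lay at 196, 193 and 217 CPM untreated and 193, 182 and 182 CPM after IR. These groups only just failed to overlap, with 192.96 CPM in untreated replicate 2 against 192.69 CPM in IR replicate 1. Lower values after IR without overlap hold for 23.3% of all tested genes. The fitted difference was −0.12 ± 0.07 (log2, standard error, with a 95% confidence interval of −0.27 to 0.03). The value was −0.010 with the trend with GC content removed, −0.21 with a length offset, −0.25 with TPM and −0.066 without untreated replicate 3. The other 14 transcripts were not alike. Among them, ZC3H11A-215 had an IR mean of 1.93 times the untreated mean. The 10 transcripts from the shared start that lack the ZBED6 coding sequence had 0.541 times, against 0.424 times for the coding pair. The part of read division by kallisto in this split was not tested. Transcripts with the ZBED6 coding sequence held 30.2%, 33.9% and 25.0% of the counts of the locus untreated and 19.7%, 17.1% and 11.5% after IR.

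The gene ZBED6 counts only part of that RNA, and the part was not constant. ZBED6-201 took 38.6%, 37.8% and 37.3% of the counts of the 2 coding transcripts in untreated libraries. After IR it took 30.2%, 18.4% and 25.8%. The remainder, counted for ZC3H11A, was ZC3H11A-214 at 52.0, 61.6 and 45.4 CPM untreated and 33.0, 30.7 and 17.7 CPM after IR. The groups of ZC3H11A-214 did not overlap, with a fitted difference of −0.95 ± 0.25 (log2, standard error). Its level was thus above that of ZBED6-201 in each of the 6 libraries on both scales, since ZBED6-201 also took at most 36.0% of their TPM.

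Single transcripts of the host moved in both directions. Of the 16 transcripts, 10 passed the filter on low counts, 8 of them with a log2 fold change below 0, and 4 below −1, against 10.1% of 56752 tested transcripts. The groups did not overlap for 4 with lower values (ZBED6-201, ZC3H11A-202, ZC3H11A-203 and ZC3H11A-214), against 11.5% of tested transcripts, and for 1 with higher values, ZC3H11A-215, where 22.6% of tested transcripts do not overlap in either direction. Because the locus was chosen on this contrast, nothing is read from these counts. Of the 6 transcripts that were not tested, ZC3H11A-207 and ZC3H11A-209 were at 0 in every library and the other 4 had at most 0.725 CPM.

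ZC3H11A-215 was the only one of the 10 tested transcripts whose IR libraries all lay above the untreated libraries. It had 41.5, 41.7 and 67.2 CPM untreated and 90.4, 93.8 and 107 CPM after IR, or 0.98 ± 0.22 higher on the log2 scale (standard error). Untreated replicate 3 stood apart from the other untreated libraries but below each IR library. Its share of the counts of the locus was 14.8%, 14.3% and 23.2% untreated and 37.7%, 42.7% and 51.7% after IR. The 68 stretches of 31 bases that set it apart all overlap its first exon. Of the 38 stretches that lie wholly within that exon, 4 occur more than once on chromosome 1, whereas none of 38 spaced over the ZBED6 coding sequence does.

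Transcripts from the shared start were lower with and without the ZBED6 coding sequence. The 10 that start within 100 bases of ZBED6-201 and lack that sequence summed to 143, 143 and 140 CPM untreated and 84.7, 80.9 and 64.3 CPM after IR. The groups did not overlap, and the IR mean was 0.541 times the untreated mean. All 12 transcripts from the shared start together had 227, 242 and 212 CPM untreated and 132, 118 and 88.0 CPM after IR. They held 81.0%, 82.8% and 73.3% of the counts of the locus untreated and 55.0%, 53.9% and 42.7% after IR. ZC3H11A-215 shares its exons past the first with most of them, and the part of read division by kallisto in these values was not tested.

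**Figure D3:**
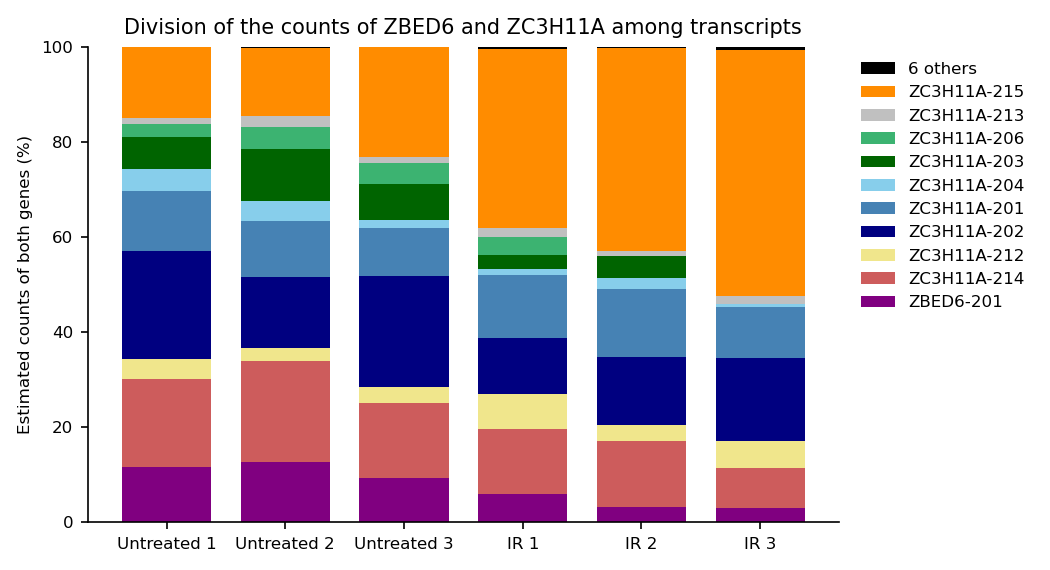
Percent of the estimated counts of both genes assigned to each of the 10 tested transcripts, and to the 6 others in black, in each of 6 libraries. ZBED6-201 (lowest segment) takes 9.35% to 12.8% untreated and 2.97% to 5.95% after IR, and ZC3H11A-215 (orange) 14.3% to 23.2% and 37.7% to 51.7%.

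Among transcripts that code for ZC3H11A, ZC3H11A-202 had the highest mean CPM untreated, though not the highest value in untreated replicate 2. It lay at 63.8, 43.2 and 67.9 CPM, and lay at 28.3, 31.6 and 35.9 CPM after IR. Its groups did not overlap (log2 fold change −0.84, standard error 0.21). ZC3H11A-201 had 35.6, 34.8 and 28.9 CPM untreated and 32.1, 31.4 and 22.3 CPM after IR, and the groups overlapped (log2 fold change −0.19, standard error 0.17). ZC3H11A-203 had 18.9, 31.7 and 22.2 CPM untreated, 7.03 and 9.84 CPM in IR replicates 1 and 2, and was at 0 in IR replicate 3, although that library is the deepest.

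ZC3H11A-206 had 7.15, 13.8 and 12.6 CPM untreated and 8.83 CPM in IR replicate 1, and was listed at 0 in the other 2 IR libraries. Its log2 fold change was −1.92 (standard error 2.14). ZC3H11A-204 had 13.1, 12.1 and 4.69 CPM untreated and 3.15, 5.11 and 1.13 CPM after IR, with overlap between the groups (log2 fold change −1.66, standard error 0.66). In the same fit ZBED6-201 lay at −1.81 (standard error 0.36), above ZC3H11A-203 and ZC3H11A-206. The transcripts annotated as targets of nonsense-mediated decay were minor and overlapped between the groups. ZC3H11A-212 lay at 11.8, 8.35 and 9.88 CPM untreated and 17.3, 7.45 and 11.4 CPM after IR. ZC3H11A-213 lay at 3.96, 6.76 and 3.44 CPM untreated and 4.72, 2.45 and 3.60 CPM after IR.

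Replicate error differed between the genes and their transcripts. The coefficient of variation among untreated libraries was 2.05% for the sum of both genes, 2.78% for ZC3H11A, 16.0% for ZBED6, and from 11.1% to 46.1% (median 25.0%) for the 10 tested transcripts. Among IR libraries it was 7.63%, 5.99% and 49.3%, and from 8.84% to 173% (median 36.5%) for the transcripts. The effective lengths that kallisto estimated hardly moved, with 10670 to 11007 bases untreated and 10704 to 10794 bases after IR for ZBED6-201. Long genes were lower as a class, since the 95 tested genes with a mean transcript length of at least 10000 bases had a median log2 fold change of −0.32, and 6.32% of them lay below −1. The part of length and of GC content in the values of ZBED6 was not tested beyond the offsets given below. The length offset adjusts only for changes of effective length between libraries, which were small for ZBED6-201 (IR over untreated 0.996). Its log2 fold change for ZBED6, −1.83, therefore cannot test the part of transcript length itself.

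Under each of 13 other ways of processing the data, ZBED6 remained lower after IR, with log2 fold changes from −2.34 to −1.52. The range was −1.52 to −1.02 for the coding transcripts, −0.45 to −0.26 for the sum of both genes and −0.32 to −0.15 for ZC3H11A. The order of the 4 values was the same in each of these fits, though the merged value falls between the 2 genes by construction. Without IR replicate 3, the library that stood apart, the 4 values were −1.60, −1.02, −0.33 and −0.23.

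**Figure D4:**
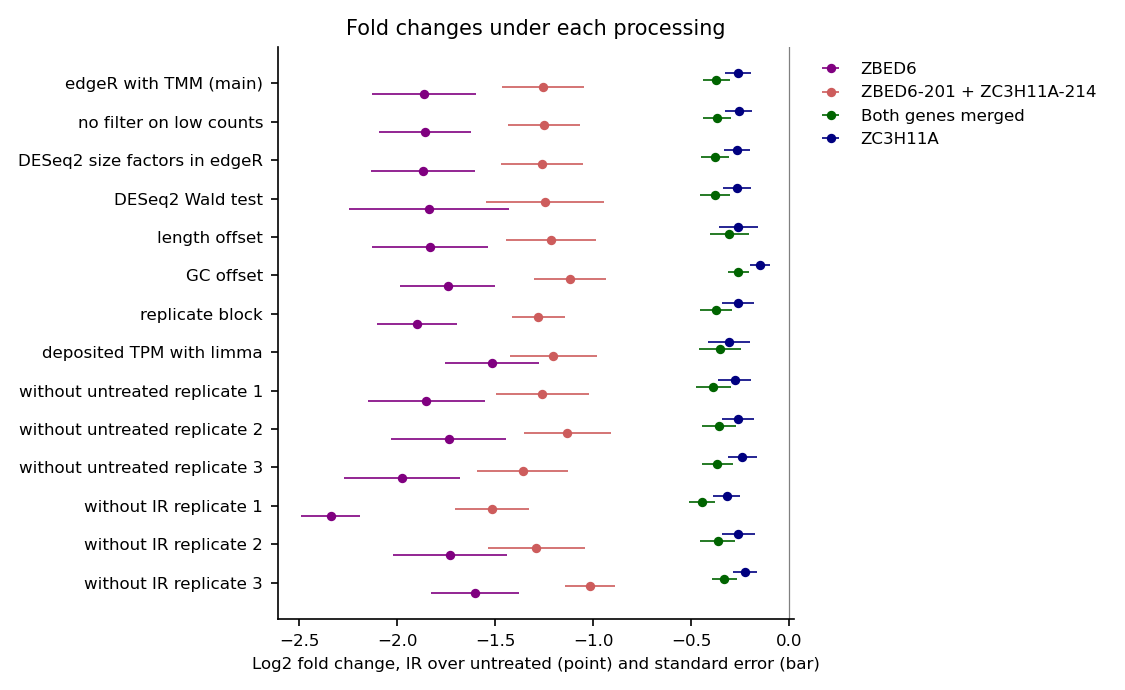
Log2 fold changes of IR over untreated (points) with standard errors (bars) for ZBED6, the transcripts that hold its coding sequence, both genes merged and ZC3H11A, under the main processing and 13 alternatives. ZBED6 ranges from −2.34 to −1.52 and ZC3H11A from −0.32 to −0.15, and the 2 ranges do not meet.

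As a gene with its own coding block in a host intron, ZBED6 was set beside other genes of that layout, found in the annotation by the rule that the coding sequence is 1 block within an intron of another protein-coding gene on the same strand. The difference between the log2 fold changes of nested gene and host could be taken for 77 pairs, with ZBED6 among them. A nested gene with several hosts, such as TAS2R30, enters several pairs, so the pairs are not separate loci. For ZBED6 and ZC3H11A the difference was −1.60, the lowest of the 77, where the median was −0.04 and the highest was 2.04, for UTP14C inside ALG11. It was also the lowest of the 43 pairs whose nested gene had a mean of at least 100 counts (median −0.03). ZBED6 was chosen for its fold change, so that its place is a description. Of the 71 tested genes of this kind other than ZBED6, 3 rose and 8 fell in edgeR (15.5% called, against 30.1% of all genes), and their median log2 fold change of −0.06, against 0.01 over all genes, was 0.0041 when the trend with GC content was removed. Of those whose mean count was 100 or more, the 5 lowest were TLR6 (−0.72), MCTS2 (−0.55), BLACAT1 (−0.50), SLC5A3 (−0.47) and TMPPE (−0.47), and the first 4 passed, with TLR6 alone among them passing under all 13 alternatives and MCTS2 lost without untreated replicate 1, untreated replicate 2 or IR replicate 3. The 5 highest were UTP14C (1.46), OR51B5 (0.65), DERPC (0.51), ZNF581 (0.40) and GALNT4 (0.35), of which OR51B5 passed. Among called genes of lower counts, OR51B4, ADAT3 and ENSG00000282936 had log2 fold changes of 1.11, 0.94 and −0.88, calls that 9, 6 and 6 of 13 alternatives kept.

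**Figure D5:**
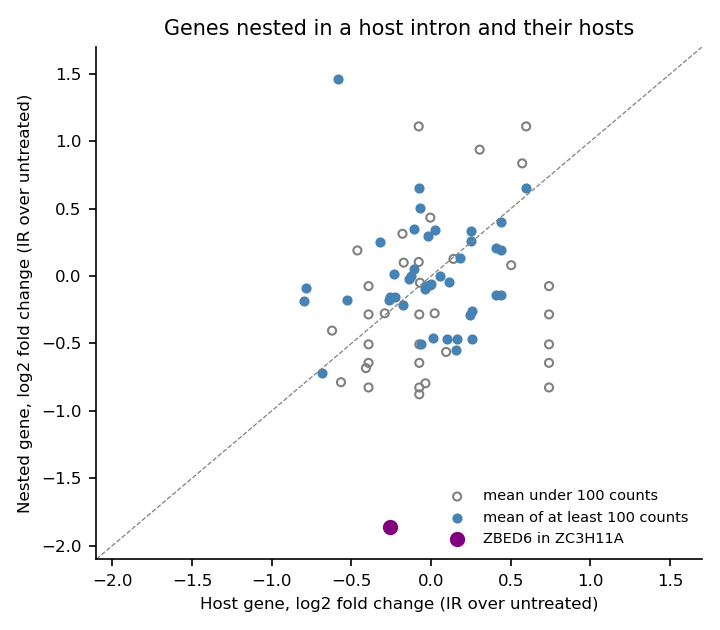
Log2 fold change of IR over untreated for the nested gene (vertical axis) against that of its host (horizontal axis) in 77 pairs, with open circles for nested genes with a mean under 100 counts, filled ones for the others and the dashed line of equality. ZBED6 lies at −1.86 with its host at −0.26, the farthest below the line.

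The ZBED family shares the BED zinc finger with ZBED6. Of its 8 other members, 7 were tested and 2 fell (28.6% called, against 30.1% of all genes), with a median log2 fold change of −0.23. ZBED3 lay at 32.1, 31.5 and 32.2 CPM untreated and 29.1, 26.1 and 21.0 CPM after IR (log2 fold change −0.34 ± 0.11 as standard error, edgeR adjusted P = 0.0422). ZBED4 lay at 83.6, 83.4 and 69.6 CPM untreated and 66.0, 63.5 and 69.5 CPM after IR (log2 fold change −0.25 ± 0.08 as standard error, edgeR adjusted P = 0.0475). Neither passed without untreated replicate 1, untreated replicate 2 or IR replicate 2, only ZBED4 of the 2 passed without untreated replicate 3 or IR replicate 3, and only ZBED3 without IR replicate 1. FAM200C (ZBED8), SCAND3 (ZBED9), ZBED5, ZBED2 and ZBED1 did not pass, with log2 fold changes of −0.31, −0.23, −0.19, 0.07 and 0.21, and ZBED10P (ZBED6CL) had at most 4 estimated counts in a library.

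Of 29 tested genes with other proteins derived from DNA transposons or related to them, 0 rose and 7 fell in edgeR (24.1% called, against 30.1% of all genes), with a median log2 fold change of −0.12. CGGBP1, POGZ and THAP12 fell by 0.42, 0.41 and 0.34 on the log2 scale, calls kept under all 13 alternatives. JRKL fell by 0.35, a call kept under 5 of them. The list had 3 calls without untreated replicate 2 and 3 without IR replicate 2.

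Of 49 other CCCH zinc finger genes tested beside ZC3H11A, 4 rose and 13 fell in edgeR (34.7% called, against 30.1% of all genes), with a median log2 fold change of −0.10. MBNL3, a splicing regulator, fell by 0.65 on the log2 scale, a call kept under all 13 alternatives. ZC3HAV1L and ZC3H12C fell by 0.58 and 0.52, calls that 7 and 11 alternatives kept. Both were lost with a length offset and with TPM, and ZC3HAV1L also without untreated replicate 1 or 2 or IR replicate 2 or 3. HELZ2, a helicase gene, rose by 0.58, a call kept under 5 alternatives. None of the 4 higher calls was left with a length offset (0 higher and 5 lower), the trend with GC content removed (0 and 13), a replicate block (0 and 12) or TPM (0 and 5), or without any 1 untreated library or IR replicate 3. The list had 8 calls without untreated replicate 1 or 2, 10 without untreated replicate 3, and 11 without IR replicate 2 or 3.

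Of 33 tested mRNA export genes, whose proteins work in the pathway that ZC3H11A joins, 2 rose and 7 fell in edgeR (27.3% called, against 30.1% of all genes), with a median log2 fold change of −0.01. THOC1 and THOC2, subunits of the THO complex, fell by 0.26 and 0.36 on the log2 scale, and NXT2, NCBP3 and FYTTD1 by 0.38, 0.34 and 0.27. The adaptor ALYREF, the helicase DDX39B and the export receptor NXF1 did not pass, with log2 fold changes of −0.05, −0.0017 and 0.03, the first with the sign turned by a length offset and the second also by TPM. With the trend with GC content removed, 4 rose and 4 fell, with TPM only 1 passed, with a lower level, and with a length offset none did. There were 3 calls without untreated replicate 1 or 3, 5 without untreated replicate 2 and 4 without IR replicate 2.

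The IGF axis holds IGF2, a growth factor and the best known target of ZBED6. IGF2 lay at 41.0, 44.0 and 34.6 CPM untreated and 30.2, 33.2 and 29.7 CPM after IR. All IR libraries lay below all untreated libraries, for a log2 fold change of −0.37 ± 0.10 (standard error, edgeR adjusted P = 0.0183), a call lost with a length offset, with TPM, and without untreated replicate 1 or 2. Of 16 tested genes of the axis, 3 rose and 3 fell (37.5% called, against 30.1% of all genes), with a median log2 fold change of −0.16. All lower calls were lost with a length offset (3 higher and 0 lower) and with TPM (2 and 0). IGFBP7 and IGFBP6, which encode proteins that bind IGFs, rose by 1.02 and 0.84 on the log2 scale, calls kept under all 13 alternatives. IGFBP4 rose by 0.41, IGFBP5 fell by 0.44 and IGF2BP3 by 0.41, calls that 11, 11 and 5 alternatives kept. The receptor genes IGF1R and IGF2R and the mRNA-binding IGF2BP1 did not pass, with log2 fold changes of 0.09, −0.16 and −0.26, each of which changed sign with a length offset and with TPM.

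Within 500 kb of the locus, 9 of 14 other protein-coding genes were tested, of which 3 rose and 1 fell in edgeR (44.4% called, against 30.1% of all genes), and the median log2 fold change was 0.32. The split was 2 higher and 2 lower with the trend with GC content removed, and 1 and 0 with a length offset or TPM. BTG2, an antiproliferative gene that p53 is known to induce, lay 486021 bases before ZC3H11A. It rose by 1.17 on the log2 scale, a call kept under all 13 alternatives. ATP2B4, a calcium pump gene that ends 51542 bases before ZC3H11A, fell by 0.41, a call that 11 alternatives kept. KISS1 and ETNK2 rose by 1.15 and 0.32, calls that 7 and 5 alternatives kept. SNRPE, which begins 6600 bases past ZC3H11A, and SOX13 did not pass, with log2 fold changes of 0.22 and −0.06, and LAX1, the nearest gene before the locus, had 5.01 to 18.2 estimated counts and was not tested. The list had 2 calls without untreated replicate 2 and 2 without IR replicate 3.

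The genes with the pattern most like that of ZBED6 were named by Pearson's r of log2 CPM over the 6 libraries, among the 11675 genes whose mean count was 100 or more. They were IKZF2 (r = 0.999), NF1, IDE, ELAVL2 and ANKRD50, the last with r = 0.997. Their log2 fold changes, from −0.64 for IKZF2 to −0.16 for IDE, were smaller in size than that of ZBED6. For ZC3H11A the 5 closest were SLC2A12 (r = 0.999), RANBP2, KIF20B, EXOC6 and CHML. ZBED6 and ZC3H11A had an r of 0.955 with each other, and ZC3H11A ranked 742 among the genes most like ZBED6. These values are descriptions over 6 points that share 2 groups. A gene that differs between the groups tends to have a high r with any other that differs in the same direction.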

How the data were processed

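RNA of 6 U-2 OS libraries was sequenced, 3 untreated and 3 collected 24 h after 4 Gy of IR. The authors trimmed reads with fastp and assigned them with kallisto (versions not given in the sources used here) to GENCODE release 37 (GRCh38), and deposited, per transcript, estimated counts that are not normalized, TPM values scaled for effective length and library total, and both lengths. Here, 158711 of 161171 transcripts were matched by identifier to release 44, and the other 2460, with 1.54% to 1.80% of a library's counts, were left out. Counts were summed per gene, rounded, filtered by filterByExpr, scaled by TMM and fitted by the quasi-likelihood method of edgeR 4.0.16 (R 4.3.3), with Benjamini–Hochberg adjustment over all genes tested and a threshold of 0.05. The same fit was run with both members merged, with the locus divided by whether a transcript holds the ZBED6 coding sequence, and on single transcripts. Standard errors come from the F statistic. The fits were run on simulated data. For transcripts the simulated spread was set below that of these libraries, so the transcript fit was not tested at their spread.

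The members, the gene lists and the motifs were chosen with earlier results of these data known, and no gene list is independent evidence. Named genes were the members and their transcripts, all tested ZBED genes, in each other list the 4 called genes with the largest fold change and set genes of interest, the 2 nearest genes on each side, the 5 genes most like each member, and the 5 lowest and 5 highest nested genes with at least 100 counts. Listed symbols that are older names were looked up in RefSeq synonyms. PGBD3 was not analysed here. Alternatives were size factors of DESeq2 1.42.0 in the edgeR fit, its Wald test, no filter on low counts, an offset for effective length, removal of the trend with GC content by an offset (a spline with 5 degrees of freedom), a replicate block, log2(TPM + 0.5) with limma 3.58.1, and each library left out in turn. The summed coding-sequence and other transcripts were added after the data had been seen. Libraries of a group differed by more than sampling noise in all pairs. IR replicate 3, the deepest library and the one that stood apart, is the only one whose deposited file carries a mark, of unstated meaning, in its name.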

Additional observations from a re-analysis of the deposited data

How the results depend on the processing

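Under the 13 alternatives ZBED6 and the transcripts with its coding sequence kept their direction and moved by less than the spread between replicates, with log2 fold changes of −2.34 to −1.60 for ZBED6 when 1 library was left out. Removal of the trend with GC content brought ZC3H11A to −0.15, the merged genes to −0.26 and the other transcripts to −0.010. A length offset gave −0.21 and TPM −0.25 for the other transcripts. The difference in the share of ZBED6 (IR minus untreated) was −7.24 percentage points of the counts and −3.08 of the TPM. No transcript of 56752 passed in edgeR, where 6090 had an unadjusted p under 0.05, and where 3002 passed by DESeq2 and 128 by limma on TPM. The common coefficient of variation of edgeR was 0.737 for transcripts and 0.0931 for genes, and the cause of the differing counts was not tested. ZBED6-201 rests on 127 to 838 estimated counts.

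Of all genes, 4307 passed, 1712 with a length offset (837 higher and 875 lower), 1301 with TPM (400 higher and 901 lower), and 2582 to 4398 with 1 library left out, the lowest without untreated replicate 1 and 2601 without untreated replicate 2. With a length offset, calls numbered 1 in the ZBED family (ZBED1, higher), 4 among transposon-derived genes, 5 among CCCH genes, 0 among mRNA export genes, 3 in the IGF axis, 6 among nested genes and 1 among neighbours. With TPM they numbered 0, 4, 5, 1, 2, 6 and 1 in the same order. The ZBED family had 1 call without the filter on low counts and 1 with removal of the GC trend. With 1 library left out, the lists had 0 to 2, 3 to 8, 8 to 18, 3 to 9, 4 to 6, 8 to 15 and 2 to 5 calls in that order.

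Same-numbered libraries of the groups did not deviate together (correlations of −0.0275, 0.0362 and −0.0460 across genes for numbers 1, 2 and 3). No shared effect by number was seen across genes. Deviations from means of 3 libraries cannot exclude one, and the labels do not state whether same-numbered libraries were prepared together. With a replicate block, ZBED6 was at −1.90 (standard error 0.20, against 0.26 without it) and ZC3H11A at −0.26 (0.08 against 0.07). With the block 3351 genes passed, and calls numbered 1 in the ZBED family and 5 among mRNA export genes. In no other list did the block move the count by over 1.5 times.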
